A study of Mus musculus with 14 samples.

Results

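The H3K4me3 regions that differed between day 3 and day 10 of cartilage formation in ATDC5 cells are described here. The peaks of 4 deposited lists, 2 from day 3 and 2 from day 10, were pooled, and peaks that overlapped were merged into 40738 regions. A region was called gained where both day 10 lists and neither day 3 list had a peak in it, and lost in the opposite case. By this rule 40 of the 40738 regions (0.0982%) were gained and 619 (1.52%) were lost. The 12 lists of the series together gave 42888 merged regions, and the 6 H3K4me3 lists gave 42397.

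ATDC5 is a chondrogenic mouse cell line, 1 line derived from the AT805 teratocarcinoma. Cells of the groups used here were spotted as dense droplets, cultured with β-glycerophosphate and ascorbate-2-phosphate, and fixed with formaldehyde on day 0, day 3 or day 10. Immunoprecipitation used a rabbit antibody to H3K4me3 or a mouse antibody to RUNX2, and each antibody has 2 libraries a day. All groups share the line, and no group carries a genetic change or a drug. Whether the libraries of 1 day are separate cultures is not labelled, so their spread may be technical. The title of the series names RUNX2 and mature chondrocytes.

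H3K4me3 is trimethylation of lysine 4 of histone H3. SET1 and MLL complexes write it, mostly at the first nucleosomes after the start of active or poised genes, and at promoters rich in CpG dinucleotides it is often present whatever the transcription level. In maturing cartilage, proliferating chondrocytes that secrete collagen II and aggrecan turn into hypertrophic chondrocytes, which make collagen X, bone sialoprotein and matrix proteases before the matrix mineralises.

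Sequences before gene starts are printed first for genes that the results turn on, because their CpG content is compared between gained and lost genes further on. The reference gives the 250 bases before the start of 17492 of 21887 protein-coding genes (RefSeq, GRCm38.p6). They are written 5′ to 3′ on the strand of the gene, and capitals mark CpG dinucleotides. The first 5 belong to gained genes: the gene with the strongest gained region, and the 4 gained genes that are in a pathway or cell type list.
Fry (chr5:150259680-150259929, + strand): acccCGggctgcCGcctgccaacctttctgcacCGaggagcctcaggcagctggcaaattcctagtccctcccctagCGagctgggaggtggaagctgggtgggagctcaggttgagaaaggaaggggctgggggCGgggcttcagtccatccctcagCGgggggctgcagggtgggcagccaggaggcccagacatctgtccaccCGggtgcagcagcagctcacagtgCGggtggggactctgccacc
Col24a1 (chr3:145292222-145292471, + strand): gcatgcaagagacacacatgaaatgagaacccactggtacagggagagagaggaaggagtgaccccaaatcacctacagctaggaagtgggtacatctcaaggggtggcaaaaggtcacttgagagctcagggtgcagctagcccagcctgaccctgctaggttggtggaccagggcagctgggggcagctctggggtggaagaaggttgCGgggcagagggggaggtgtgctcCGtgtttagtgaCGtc
Car9 (chr4:43506776-43507025, + strand): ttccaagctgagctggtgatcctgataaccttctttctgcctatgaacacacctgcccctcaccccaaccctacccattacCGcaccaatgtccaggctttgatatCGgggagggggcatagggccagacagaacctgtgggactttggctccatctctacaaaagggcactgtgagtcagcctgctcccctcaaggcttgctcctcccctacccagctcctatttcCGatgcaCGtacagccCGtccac
Dkk1 (chr19:30549497-30549746, - strand): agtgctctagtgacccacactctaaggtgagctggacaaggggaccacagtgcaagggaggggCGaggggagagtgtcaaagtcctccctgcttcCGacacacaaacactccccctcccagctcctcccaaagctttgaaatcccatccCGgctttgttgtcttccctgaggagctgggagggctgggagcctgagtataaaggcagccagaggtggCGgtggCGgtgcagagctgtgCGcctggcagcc
Ibsp (chr5:104299037-104299286, + strand): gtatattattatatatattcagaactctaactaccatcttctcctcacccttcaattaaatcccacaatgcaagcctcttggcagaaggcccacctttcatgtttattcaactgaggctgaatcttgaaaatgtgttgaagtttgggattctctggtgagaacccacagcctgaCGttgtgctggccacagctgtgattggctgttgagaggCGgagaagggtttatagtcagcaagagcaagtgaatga
The next 4 belong to lost genes: the 2 with the strongest lost regions, and 2 developmental transcription factor genes picked from the lists. Hoxd11, another such lost gene with a sequence, is not printed. Hoxa10 had peaks within 1000 bp of a start in all 4 lists, with its lost region 480 bp from the start, and Barx1 had one in day 10 replicate 2.
Foxd4 (chr19:24901017-24901266, - strand): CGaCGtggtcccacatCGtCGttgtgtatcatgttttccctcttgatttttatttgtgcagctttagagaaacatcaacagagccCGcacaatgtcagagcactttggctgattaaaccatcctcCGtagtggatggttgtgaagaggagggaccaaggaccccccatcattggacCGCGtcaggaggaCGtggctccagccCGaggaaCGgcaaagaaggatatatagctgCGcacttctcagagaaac
Prdm12 (chr2:31639787-31640036, + strand): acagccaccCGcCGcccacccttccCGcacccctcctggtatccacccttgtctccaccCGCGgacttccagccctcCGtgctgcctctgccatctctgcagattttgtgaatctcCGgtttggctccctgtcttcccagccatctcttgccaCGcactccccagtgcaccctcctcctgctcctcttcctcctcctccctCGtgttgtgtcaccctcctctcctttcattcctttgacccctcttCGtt
Hoxa10 (chr6:52234940-52235189, - strand): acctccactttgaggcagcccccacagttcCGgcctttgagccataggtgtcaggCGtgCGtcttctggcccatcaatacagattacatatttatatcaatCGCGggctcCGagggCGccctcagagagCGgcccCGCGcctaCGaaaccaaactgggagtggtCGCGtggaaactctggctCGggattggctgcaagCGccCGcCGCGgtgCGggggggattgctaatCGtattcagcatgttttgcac
Barx1 (chr13:48662786-48663035, + strand): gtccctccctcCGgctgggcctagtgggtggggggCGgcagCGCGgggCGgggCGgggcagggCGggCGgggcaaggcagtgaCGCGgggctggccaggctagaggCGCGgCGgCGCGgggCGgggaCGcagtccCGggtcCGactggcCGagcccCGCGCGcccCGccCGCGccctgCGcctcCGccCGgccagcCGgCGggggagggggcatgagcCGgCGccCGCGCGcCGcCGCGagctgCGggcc
The 5 gained genes had 8, 3, 5, 6 and 2 CpG dinucleotides in these 250 bases. The 4 lost genes had 12, 10, 20 and 40. These genes were not chosen to stand for their sets, and others overlap: the gained genes Nrk and Kcns1 had 24 and 17, and the lost genes Gask1a and Hoxd11 had 5 and 2.

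Before the regions are described, the libraries have to be set side by side. The day 3 lists held 28653 and 26781 peaks, and the day 10 lists held 15219 and 29022, so day 10 replicate 1 stands apart as a short list. The mean was 27717 ± 1324 peaks on day 3 and 22121 ± 9760 on day 10 (SD, n = 2 each). The log2 ratio of day 10 over day 3 fell by 0.40 on the log2 scale, with p = 1 (exact permutation, two-sided; 2 libraries against 2 can give no p below 0.333). The spread between the day 10 libraries exceeded the difference between the days, and without day 10 replicate 1 the ratio was 0.067. Of the summits, 76.3% lay within 1 kb of a protein-coding gene start in day 10 replicate 1, against 41.6%, 48.2% and 44.3% in the 3 longer lists (day 3 replicates 1 and 2, day 10 replicate 2). The read number of each library is unknown here, so the absence of a peak is not the absence of the mark.

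Most regions with a peak in both lists of 1 day also had a peak on the other day. Regions with a peak in all 4 lists numbered 13322 (32.7%), and 20661 (50.7%) had a peak in 1 list only. Of the 17424 regions found in both day 3 lists, 96.4% were also in day 10 replicate 2 and 76.5% in day 10 replicate 1, and 3.55% were in neither. Of the 13478 regions found in both day 10 lists, 99.7% were in day 3 replicate 1 and 98.9% in day 3 replicate 2, and 0.297% were in neither. These 13478 are limited to the 13581 regions of the short list, day 10 replicate 1. Regions that lacked a peak in day 10 replicate 1 alone numbered 3479, more than the 619 lost regions.

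**Figure D1:**
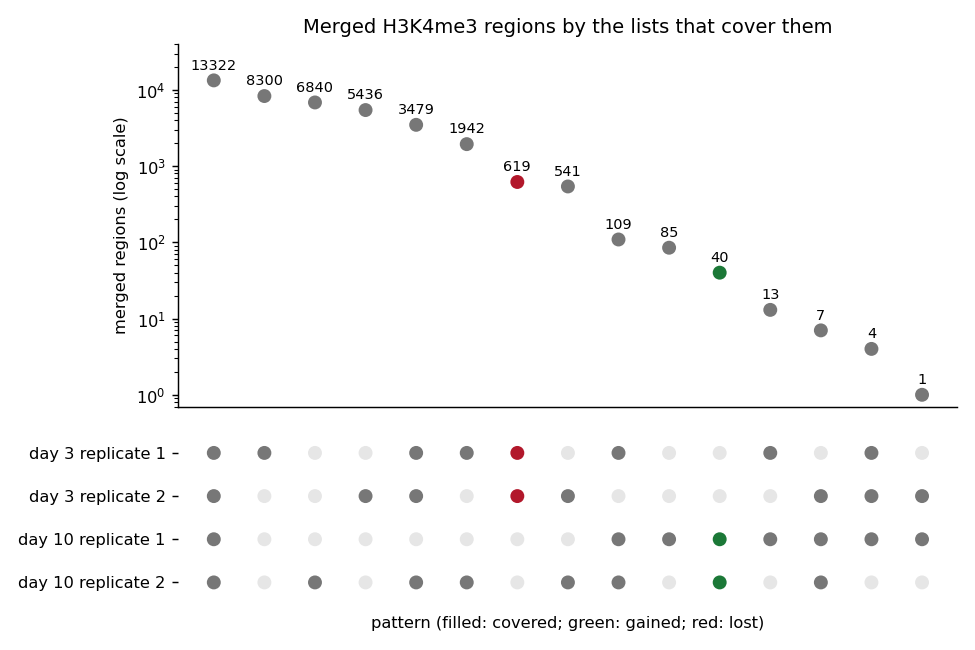
Number of merged H3K4me3 regions (log scale, upper panel) for each of the 15 patterns of coverage over the 4 lists (lower panel, filled circles mark lists with a peak). Lost regions (red, 619) lie between the crosswise patterns with 1942 and 541 regions, and gained regions (green, 40) lie between those with 541 and 13.

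Crosswise pairings of the 4 libraries, each joining a day 3 with a day 10 library, served as the control. Replicate 2 of both days, without replicate 1 of either, shared 541 regions, and replicate 1 of both days shared 13. Day 3 replicate 1 and day 10 replicate 2 alone shared 1942 regions, and day 3 replicate 2 and day 10 replicate 1 alone shared 1. The 619 lost regions were thus fewer than the 1942 of a pair that crosses the days, and the 40 gained regions were more than the 13 and the 1 of the pairs that contain day 10 replicate 1. The number of regions called moved with single libraries: without day 10 replicate 1 there were 6894 gained and 624 lost regions, and without day 10 replicate 2 there were 137 and 4181. Without day 3 replicate 1 there were 158 gained and 6369 lost regions, and without day 3 replicate 2 there were 47 and 9013. Both counts lay between the 1 and the 1942 regions of libraries paired across the days. Only pairs without day 10 replicate 1 gave more than the 40 gained regions. The part of list length in these counts was not tested.

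Gained regions were weak peaks of their lists. Fold enrichment, the authors' ratio of signal at the summit to local background, had a median of 3.94 (range 2.58 to 7.87) over the 40 gained regions in day 10 replicate 1 and 4.25 (2.92 to 6.24) in day 10 replicate 2. These medians stood at percentiles 6.86 and 24.4 of their lists. The 619 lost regions had a median fold enrichment of 5.23 (2.13 to 13.3) in day 3 replicate 1 and 4.26 (1.99 to 10.8) in day 3 replicate 2, at percentiles 28.5 and 18.3. Regions covered in all 4 lists had medians of 22.5 and 9.69 on day 3 and 12.8 and 10.9 on day 10. These values come from the lists that chose the members and are a description. Fold enrichments of different lists depend on the depth and background of each, so values of different lists are given side by side with no comparison.

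**Figure D2:**
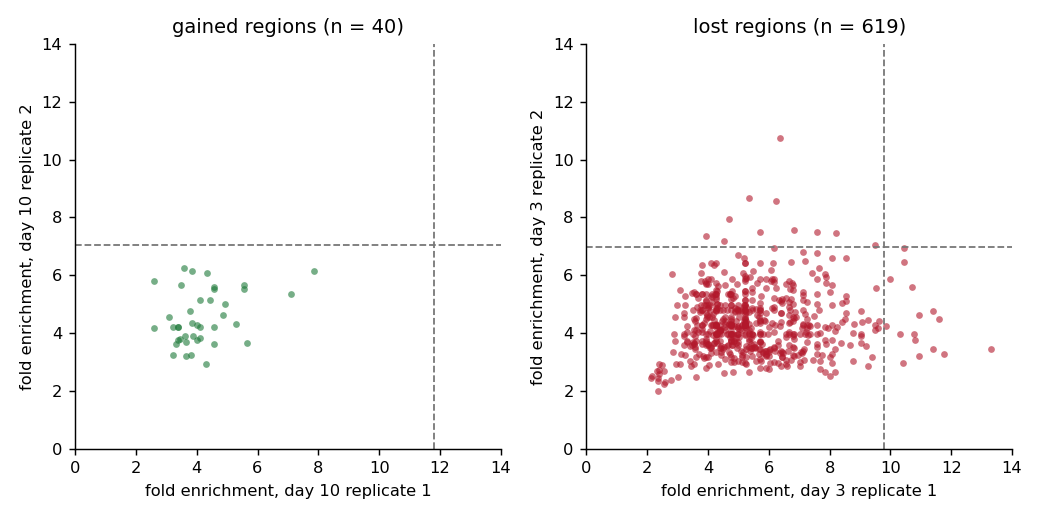
The authors' fold enrichment of each gained region in the 2 day 10 lists (left, n = 40) and of each lost region in the 2 day 3 lists (right, n = 619), with replicate 1 on the x axis and replicate 2 on the y axis. Dashed lines mark the median of all peaks of each list: all gained regions lie below both medians (11.8 and 7.04), and most lost regions lie below theirs (9.79 and 6.98).

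At the edge of the rule, the weakest gained region, near the keratin gene Krt42, had a fold enrichment of 2.58 in day 10 replicate 1, with a −log10 q of 2.04. The gained region with the lowest −log10 q, 1.88, lay near Habp2. Outside the rule, 116 regions with a peak in both day 10 lists were kept out by a peak in 1 day 3 list, which had a median fold enrichment of 6.27, and the weakest of these peaks had a −log10 q of 2.04. The lost region with the lowest fold enrichment, 1.99, lay near Asmt, and the one with the lowest −log10 q, 1.47, lay near Sfswap. A peak in 1 day 10 list kept 3483 regions out of the lost set, with a median fold enrichment of 5.77, and in 14 of these regions its −log10 q was under 2.

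The regions gained at gene starts included those of 4 members of the pathway and cell type lists. A gene was called gained where a gained region lay within 1000 bp of its start, or of either end of its span where the reference gives no start. Of 21887 protein-coding genes, 17 (0.0777%) were gained and 114 (0.521%) were lost. Among the 17 were Ibsp, Col24a1, Dkk1 and Car9.

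Ibsp encodes bone sialoprotein, a mineral-binding glycoprotein of hypertrophic cartilage and bone. Its region, chr5:104299408-104300984, began 121 bp after the start, inside the gene. It had fold enrichments of 2.60 in day 10 replicate 1 and 4.18 in day 10 replicate 2, and no peak in either day 3 or either day 0 list. In replicate 1 this was the second lowest value of the 40 regions.

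Col24a1 encodes a fibrillar collagen of developing bone. Its region, chr3:145292470-145293214, covered the start, with fold enrichments of 4.34 and 6.07 in day 10 replicates 1 and 2. Dkk1 encodes a secreted inhibitor of WNT signalling through LRP5 and LRP6. Its region, chr19:30548776-30549865, covered the start as well, with fold enrichments of 3.59 and 6.24. Car9 encodes carbonic anhydrase IX, a membrane enzyme induced by hypoxia. The region, chr4:43507054-43507464, began 28 bp after the start, with fold enrichments of 4.58 and 3.62. None of these 3 genes had a peak within 1000 bp of its start in either day 3 list or either day 0 list.

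The strongest gained region lay at Fry, which encodes a large microtubule-associated protein, at chr5:150258969-150262785. It was the widest of the 40, 3817 bp, and had fold enrichments of 7.87 and 6.15. Fxyd1, for phospholemman, a regulator of the sodium pump, followed with 4.58 and 5.60. Nrk, for a kinase of the germinal center kinase family, had 4.58 and 4.20. Myom1, for a protein of the sarcomere M band, had 4.10 and 4.22, and Adgrf5, for an adhesion receptor, had 3.87 and 3.90.

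Kcns1 and Kcnh2, a pair of potassium channel genes, were among the gained ones. Kcns1, for a modulatory subunit of voltage-gated potassium channels, had fold enrichments of 3.86 and 4.35. Kcnh2, for the potassium channel of the rapid delayed rectifier current, had 3.82 and 3.25 and was the single gained gene start whose region also held a RUNX2 peak, in both day 3 RUNX2 lists. Kcnh2, Ncf1 (3.65 and 3.22), for a subunit of the phagocyte NADPH oxidase, and Ndufa4l2 fall outside the rule for named genes and were named after their values were seen. Of 94 genes whose symbols begin with Kcn, 2 were gained (2.13%) and 2 lost (2.13%), against 0.0777% and 0.521% of all protein-coding genes. No peak at the start in any of the 4 lists was found for 48 of the 94, against 40.4% of all protein-coding genes. This family was also chosen after the values were seen.

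Some gained genes had another start with H3K4me3 on both days. Of the 17 genes, 13 had a peak within 1000 bp of the start in the day 10 lists only, 3 had one in all 4 lists, and 1 in a mixed set. The region at Arap1, for a GTPase-activating protein, had fold enrichments of 5.28 and 4.30, and another start of Arap1 had peaks of 19.5 and 6.69 in the day 3 lists and of 9.40 and 12.3 in the day 10 lists. Deaf1, for a transcription factor, and Eps8l2, for an actin regulator, share the gained region chr7:141339021-141339786 (3.86 and 6.15). Deaf1 had day 3 peaks of 19.5 and 12.3 at another annotated start, and Eps8l2 had none. C130050O18Rik, a gene of unassigned function here, had gained region values of 5.65 and 3.67 and a peak of 8.80 in day 3 replicate 1 within the same window. Ndufa4l2, for a mitochondrial protein induced by hypoxia, was both gained and lost, since the reference gives no start and both ends of its span were used. Its gained region (3.10 and 4.57) lay 576 bp from one end, and a lost region with fold enrichments of 9.50 and 4.09 in the day 3 lists lay at the other end, beside Stac3.

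Away from gene starts and ends, the strongest gained region lay inside Slc38a3, for a glutamine transporter, 5983 bp from the start, with fold enrichments of 5.54 and 5.67. One between genes, nearest to Usp25 at 222787 bp, had 7.11 and 5.36, and one inside Syt7, for a synaptotagmin, had 4.93 and 5.00. Both of these held a RUNX2 peak in both day 3 lists. Regions nearest to Adpgk, for an ADP-dependent glucokinase, numbered 2, the stronger with 4.85 and 4.62, and Habp2 also had 2. A region 19928 bp from the start of Foxa2, a forkhead factor of hypertrophic chondrocytes, had 4.58 and 5.53. Another inside Mpp5, for a cell polarity protein, had 4.10 and 5.15. One region, chr11:112710742-112711394, was nearest to Sox9, the main chondrocyte transcription factor, at a distance of 70816 bp and at the start of the gene BC006965, with 4.01 and 4.28. Inside Notch3, for a receptor of the NOTCH pathway, another had 3.37 and 3.77. Sox9, Foxa2 and Notch3 themselves had peaks at their starts in all 4 lists.

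The 12 strongest lost regions at gene starts are given by rank of the smaller of their 2 fold enrichments, with the values of day 3 replicates 1 and 2. The first lay at Foxd4, for a forkhead factor, with fold enrichments of 8.20 and 7.45. Prdm12, for a factor of sensory neuron development, had 7.60 and 6.78, and Gask1a, for a Golgi-associated kinase-like protein, had 6.08 and 6.18. Those at Adgrb1 (7.60 and 5.88), for an adhesion receptor of brain, Nova2 (9.98 and 5.88), for a neuronal splicing factor, Arhgef7 (5.91 and 5.88), for a guanine nucleotide exchange factor, and Irx1 (5.70 and 5.88), for an Iroquois homeobox factor, came next. The regions of Foxd4 and Nova2 also had a peak in day 0 replicate 2, and Arhgef7 had peaks in all 4 lists at another of its annotated starts. Of the 12 genes in the neuron list none was lost or gained.

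At the next rank, Fgf8, for a fibroblast growth factor of limb and brain patterning, had fold enrichments of 5.76 and 5.30 at chr19:45741958-45742806. Tnfrsf13c, for the BAFF receptor of B cells, had 5.23 and 5.34, and Ttbk1, for a tau kinase, had 6.34 and 5.16. Bmp3, for a BMP family ligand that antagonises osteogenic BMPs, had 5.00 and 6.70 at chr5:98854662-98855455. The last of the 12, Camk1g, for a calmodulin-dependent kinase, had 5.20 and 4.97. Fgf8 and Ttbk1 also had a peak within 1000 bp of the start in day 0 replicate 2 (4.90 and 4.99).

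Homeobox and forkhead genes held several lost regions. Of 39 Hox genes 4 were lost (10.3%): Hoxa10 (5.00 and 4.26), Hoxc10 (6.57 and 3.88), Hoxc11 (4.75 and 4.97) and Hoxd11, with 2 lost regions (4.54 and 4.55, and 5.70 and 3.98). Of 44 forkhead genes 4 were lost (9.09%), Foxd4, Foxb1, Foxe3 and Foxn4, and of 8 LIM homeobox genes 2 were lost, Lhx1 and Lhx5. Of 14 Prdm genes 2 were lost, Prdm12 and Prdm13. No gene of these 4 families was gained, and 24 Hox and 27 forkhead genes had peaks in all 4 lists. Over all protein-coding genes the lost share was 0.521%. All 4 lost Hox genes had day 10 peaks elsewhere within 1000 bp of a start. Hoxa10 and Hoxc10 had them in both day 10 lists, and Hoxc11 and Hoxd11 in replicate 2. Lhx5 also had one in both day 10 lists and Foxb1 in replicate 2. The other lost genes of these 4 families had none there. These families were chosen after the lost genes had been seen, so the shares are a description with no test.

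Further list members lost at a start were Barx1, a homeobox factor of joint and stomach mesenchyme (4.75 and 3.74), and Sall4, a zinc finger factor of pluripotent cells and limb buds (4.75 and 3.97). Barx1 had a peak of 5.13 elsewhere within 1000 bp of its start in day 10 replicate 2, and Sall4 had one of 6.70 in day 0 replicate 2. Of the 114 lost genes, 68 had peaks at the start on day 3 only, 22 had peaks in all 4 lists and 24 in a mixed set.

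Lost regions away from starts and ends included some inside cartilage matrix genes, named here after their values were seen. A region inside Col9a2, for a chain of collagen IX, had fold enrichments of 5.00 and 4.98, and one of the 2 inside Col9a3 had 9.63 and 4.43. The start of Col9a2 had peaks in both day 10 lists (3.73 and 4.07) and 1 day 3 list (4.64), and that of Col9a3 in day 10 replicate 1 only (3.62). A region inside Fmod, for the collagen-binding proteoglycan fibromodulin, had 7.93 and 4.17, and the Fmod start had peaks in both day 3 lists (8.57 and 6.29) and in day 10 replicate 2 (4.64). A region inside Timp2, for an inhibitor of matrix metalloproteinases, had 11.6 and 4.50, while its start was covered in all 4 lists.

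The highest lost regions far from starts lay near Gm20873 on the Y chromosome (7.60 and 7.49), near Pex2 (9.50 and 7.06), inside Ttc6 (10.5 and 6.95), near Nsmaf (6.82 and 7.57), near Sp2 (7.13 and 6.80) and 3988 bp from Sox18, for an endothelial transcription factor (8.08 and 6.61). The gene 4932411N23Rik on the X chromosome had the most lost regions near it, 10 within chrX:126695454-126771646, followed by 5 inside Ulk4. Adgrb1 had 4, and Alkbh8 and Aopep were among the genes with 3. The 10 regions on the X chromosome were weak, with the smaller fold enrichment of each between 2.23 and 3.94.

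**Figure D3:**
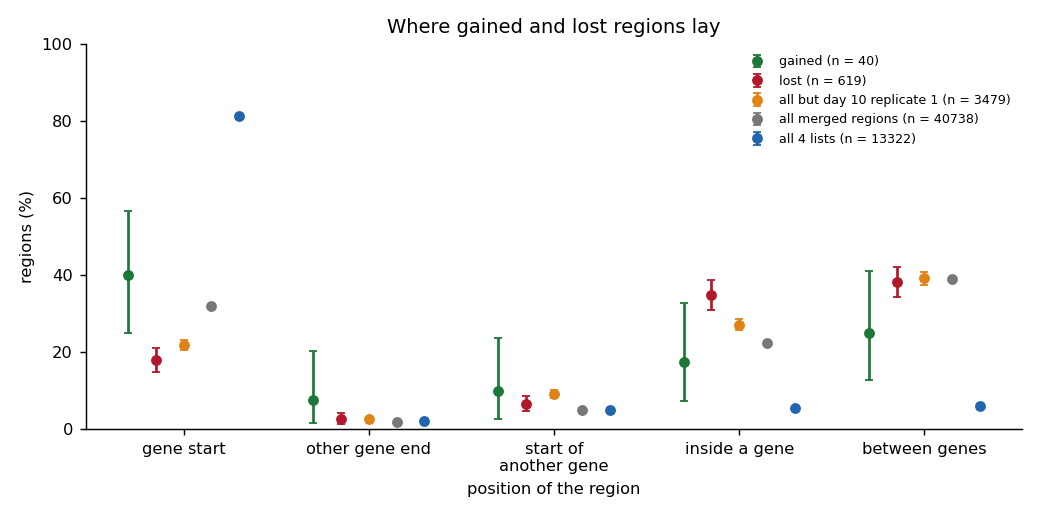
Percent of regions at each position, with exact Clopper-Pearson 95% intervals, for gained regions, lost regions, regions missing from day 10 replicate 1 alone, all merged regions and regions in all 4 lists. At gene starts lay 40.0% of gained and 17.9% of lost regions, against 31.9% of all merged regions and 81.2% of those in all 4 lists.

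The positions of the 2 sets were not used by the rule. Of the 40 gained regions, 16 (40.0%, interval 24.9 to 56.7%) lay at a gene start, 7 (17.5%) inside a gene and 10 (25%) between genes. A further 3 lay at the other end of a gene and 4 at the start of a gene that is not protein-coding. Of the 619 lost regions, 111 (17.9%, 15.0 to 21.2%) lay at a gene start, 215 (34.7%, 31.0 to 38.6%) inside a gene and 237 (38.3%, 34.4 to 42.2%) between genes. The 3479 regions missing from day 10 replicate 1 alone had 21.8% at gene starts and 27.1% inside genes, and all merged regions had 31.9% and 22.4%. The interval of the lost share inside genes lies above both of these sets, and that at starts lies below all merged regions and overlaps that of the regions missing from day 10 replicate 1 alone (20.5 to 23.3%). The interval of the gained share contains the value of all merged regions. Without day 10 replicate 1, 4.70% of gained regions lay at a gene start, and without day 3 replicate 1 or 2, 6.03% or 6.66% of lost regions did. Intervals treat regions as independent and cover counting error only.

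Both sets were narrower than the regions that all 4 lists shared. The median width was 668.5 bp for gained regions (304 to 3817) and 503 bp for lost regions (218 to 1909), against 1999 bp for regions in all 4 lists and 462 bp for all merged regions. The median distance to the nearest protein-coding gene start was 13987 bp for gained, 17085 bp for lost and 14251 bp for all merged regions. Within 1 kb of a region covered in all 4 lists lay 3 of 40 gained (7.5%) and 50 of 619 lost regions (8.08%). Of all 27416 merged regions not in all 4 lists, 5.34% did.

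Gained regions had almost no peak before differentiation. None of the 40 was covered in both day 0 lists (interval 0 to 8.81%), and 1 was covered in day 0 replicate 2, a region at the far end of Etl4. Of the 619 lost regions, 4 (0.646%, 0.176 to 1.65%) were covered in both day 0 lists and 106 (17.1%, 14.2 to 20.3%) in at least 1. All 106 had the peak in day 0 replicate 2, and 4 had it in replicate 1, whose list is the shorter (13765 against 20863 peaks). At gene starts 33 of 111 lost regions (29.7%, 21.4 to 39.1%) had a day 0 peak in at least 1 list, against 73 of 508 (14.4%, 11.4 to 17.7%) elsewhere. Of all merged regions 36.9% were covered in at least 1 day 0 list, 86.3% of those at gene starts and 13.7% of those elsewhere. The interval of the lost regions lies below the value of all merged regions at starts, and contains it elsewhere. Equal numbers of top peaks, which called almost entirely other regions, gave 5.04% of lost regions with a peak in both day 0 lists. Leaving out day 10 replicate 2 gave 3.95%. Most of the 619 lost regions thus had no peak in either day 0 list, while their day 3 and day 10 states are set by the rule. They were weak peaks of the day 3 lists, at median percentiles 28.5 and 18.3. Both day 0 lists were shorter than the day 3 lists (28653 and 26781 peaks). The part of peak strength and list length in the day 0 shares was not tested.

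**Figure D4:**
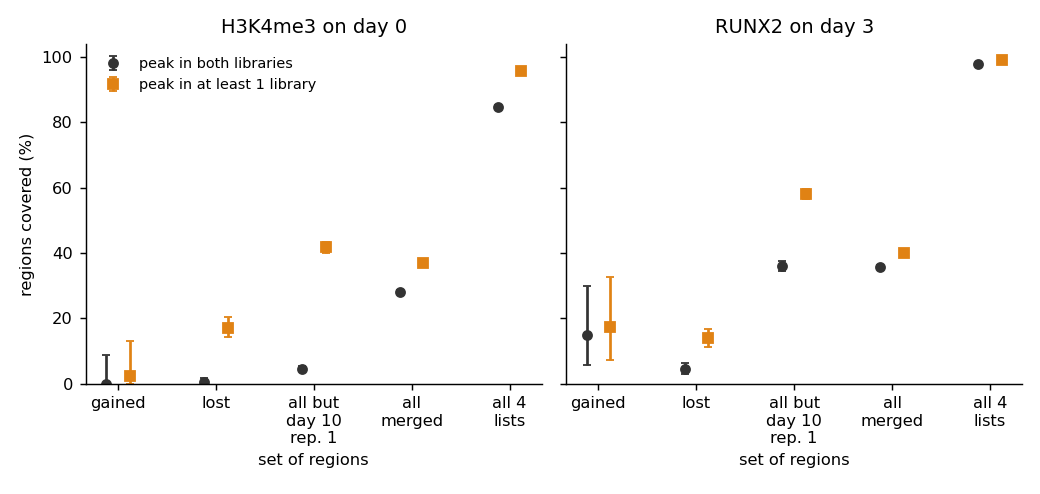
Percent of regions covered by H3K4me3 on day 0 (left) and by RUNX2 on day 3 (right), in both libraries (circles) or at least 1 (squares), with exact Clopper-Pearson 95% intervals. Gained and lost regions lie lowest in both panels, and regions in all 4 lists lie highest.

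RUNX2, the runt-domain factor that drives hypertrophy, was found at few of the gained and lost regions at gene starts. The RUNX2 lists of day 3 held 19319 and 16859 peaks, while those of day 0 and day 10 held between 97 and 108, so only day 3 could give many overlaps. Both day 3 RUNX2 lists covered 6 of 40 gained (15.0%, 5.71 to 29.8%) and 28 of 619 lost regions (4.52%, 3.03 to 6.47%). They covered 35.9% of all merged regions, 36.0% of those missing from day 10 replicate 1 alone and 97.7% of those in all 4 lists. At gene starts both lists covered 1 of 16 gained (6.25%, 0.158 to 30.2%) and 5 of 111 lost regions (4.50%, 1.48 to 10.2%), against 86.0% of all merged regions there. Elsewhere they covered 5 of 24 gained (20.8%, 7.13 to 42.2%) and 23 of 508 lost regions (4.53%, 2.89 to 6.72%), against 12.4% of all merged regions there. The gained interval away from starts contains the value of all merged regions there, and the lost interval lies below it. No gained region held a RUNX2 peak on day 10. Equal numbers of top peaks called almost entirely other regions, and 66.7% of those gained and 50% of those lost had RUNX2 in both lists. A −log10 q of at least 5 gave 33.3% and 13.7%. Without day 10 replicate 1 the gained share was 0.870%, and without day 10 replicate 2 the lost share was 30.8%, while without day 3 replicate 1 or 2 it was 0.738% or 0.943%. The low shares go with the low fold enrichment of both sets, and the part of peak strength in them was not tested.

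Genes with known roles in cartilage and bone, named whatever they showed, mostly had peaks at the start on both days. Runx2 had fold enrichments at its start of 21.5 and 7.98 on day 3 and 7.95 and 10.8 on day 10, and Sox9 had 28.0 and 9.13, then 16.2 and 9.55. Col2a1, for the main collagen of cartilage, had 20.3 and 9.78, then 12.5 and 9.38, and Acan, for aggrecan, had 15.9 and 8.33, then 12.5 and 7.75. Sp7, an osteoblast factor, Alpl, for the phosphatase of mineralisation, and Spp1, for osteopontin, were also covered in all 4 lists.

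Ihh, for the hedgehog ligand of prehypertrophic chondrocytes, had peaks of 5.45 and 4.28 on day 3 and 3.86 and 8.40 on day 10, and none on day 0. Of 6 hypertrophic markers 3 had peaks at the start in all 4 lists, and of 5 osteoblast markers 2 did, against 53.0% of all protein-coding genes. Col10a1, for collagen X, the hallmark of hypertrophy, had a peak of 5.69 in day 10 replicate 2 alone. Bglap, for osteocalcin, had one of 3.92 in the same list alone, and Mmp13, for collagenase 3, had none in the 4 lists. By the rule Col10a1 and Bglap were not gained, since day 10 replicate 1 had no peak.

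Markers of other cell types were looked at in the same way. Of 7 chondrocyte markers 6 had peaks at the start in all 4 lists, and Snorc had peaks in 3. Over all protein-coding genes 53.0% had peaks at the start in all 4 lists and 40.4% in none. All 3 skeletal muscle markers (Myod1, Myog, Acta1) and all 3 endothelial markers (Pecam1, Cdh5, Tek) had none in any of the 4 lists. Adipocyte, haematopoietic, neuron and epithelium markers each had 1 of 3 in all 4 lists (Pparg, Cd4, Syn1 and Epcam). Of the 3 pluripotent cell markers, Pou5f1 and Nanog had none and Sall4 was lost. H3K4me3 can be found at poised promoters, so these counts describe the mark and not the cells.

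The 23 pathway and cell type lists hold 426 distinct genes, of which 258 had peaks at the start in all 4 lists and 100 had none. Over all 21887 genes these shares were 53.0% and 40.4%. Of the 426 genes 4 were gained (0.939%) and 6 were lost (1.41%), against 0.0777% and 0.521% of all 21887 genes. This is a description, since the lists were chosen with earlier results of these data known. Of 22 cartilage matrix genes 11 were covered in all 4 lists, 1 was gained (Col24a1) and none was lost. Of 20 genes of mature and hypertrophic chondrocytes 17 were covered in all 4, and 1 was gained (Ibsp). Of 37 WNT genes 27 were covered in all 4 and 1 was gained (Dkk1), and of 21 hypoxia and glycolysis genes 19 were covered in all 4 and 1 was gained (Car9). Of 30 limb patterning genes 16 were covered in all 4 and 2 were lost (Hoxa10 and Hoxd11). Both of these had a day 10 peak elsewhere within 1000 bp of a start. All 19 RUNX partners and repressors, the 16 hedgehog and PTHrP genes and the 15 NOTCH genes had no gained or lost member, and 19, 11 and 11 of them were covered in all 4 lists.

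Some list members had day 3 peaks at the start and none there on day 10 without being called lost. At Sp6, for a zinc finger factor of tooth and limb (13.2 and 6.99 on day 3), Hoxa9 (8.70 and 6.72) and Neurod2, for a neuronal factor (8.55 and 5.74), the merged region reached a day 10 peak outside the window. At Wnt2 (4.65 and 4.07) and Wnt3 (5.60 and 4.85), for WNT ligands, and Jag2 (4.75 and 4.28), for a NOTCH ligand, the peaks of the 2 day 3 libraries did not overlap each other. They were named after their values were seen. Over all genes, 90 starts were covered on day 3 only and 15 on day 10 only.

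**Figure D5:**
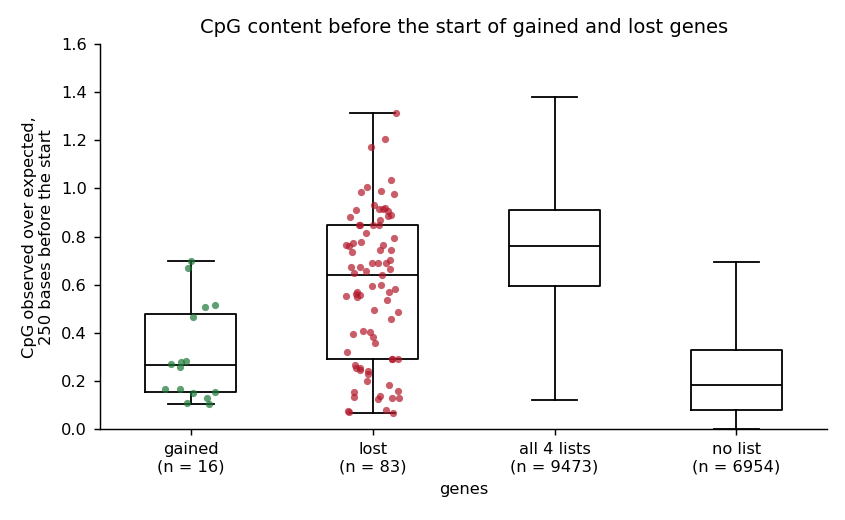
CpG observed over expected in the 250 bases before the start of gained genes (green points, n = 16), lost genes (red points, n = 83), and genes covered in all 4 lists or in none. Boxes show quartiles and median and whiskers reach 1.5 box lengths at most. The median of gained genes (0.265) lies near that of genes with no peak (0.183). The median of lost genes (0.639) lies between that of all genes with a sequence (0.536, not drawn) and that of genes in all 4 lists (0.760).

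Gained genes had a lower median CpG content before the start than lost genes, a property that the rule did not use. CpG observed over expected compares the CpG count with the one that the C and G content would give. Its median was 0.265 in the 16 gained genes with a sequence and 0.639 in 83 lost genes, against 0.536 in all 17492 genes with one. A value of at least 0.6 was found in 2 of 16 gained genes (12.5%, 1.55 to 38.3%), Kcns1 and Nrk, and in 42 of 83 lost genes (50.6%, 39.4 to 61.8%). Of all genes with a sequence 45.2% had such a value, which lies inside the interval of the lost genes and above that of the gained genes. It was found in 74.2% of genes covered in all 4 lists and in 6.79% of genes covered in none. The intervals of gained and lost genes did not overlap, and no test of the difference was made. Deaf1 and Eps8l2 share most of their sequence, so the 16 are not independent. Both sets also hold genes with start peaks on both days. Of all 114 lost genes 22 had start peaks in all 4 lists and 24 in a mixed set, and of all 17 gained genes 3 and 1. A lost region could also lie away from the sequence, as at Aqp5, 934 bp from the start. The contrast is therefore not one between promoters that gained and promoters that lost all peaks.

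In the sequences printed above, Ibsp had a CpG ratio of 0.168 with a G and C content of 43.6%, Col24a1 had 0.155, Dkk1 0.260, Car9 0.270 and Fry 0.283. Foxd4 had 0.744, Prdm12 0.594, Hoxa10 0.913 and Barx1 0.891. Other genes crossed these values: the gained genes Kcns1 and Nrk had 0.697 and 0.669, and the lost genes Hoxd11 and Gask1a had 0.160 and 0.230.

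Short motifs were searched on both strands in the same 250 bases. The RUNX core TGTGGT was in 4 of 16 gained (25%, 7.27 to 52.4%), 6 of 83 lost (7.23%, 2.70 to 15.1%) and 12.5% of all promoters. The variant TGCGGT was in 2 of 16, 12 of 83 and 5.81%. The TATA box TATAAA was in 2 of 16 gained promoters, those of Ibsp and Dkk1, in 4 of 83 lost (4.82%) and in 12.4% of all. The AP-1 motif TGANTCA was in 1 of 16, 7 of 83 and 6.22%, and the hypoxia core ACGTG in 2 of 16 (Car9 and Nrk), 12 of 83 and 17.6%. TGTGGT matches were in the promoters of Dkk1, Myom1, Deaf1 and Eps8l2, the last pair sharing sequence. A match is a description of letters and not of binding.

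With the same number of peaks taken from each list, other regions were called. The 15219 peaks with the highest −log10 q of each list gave 75 gained and 238 lost regions, and the crosswise pairings gave 90, 161, 288 and 34. None of the 40 gained and 3 of the 619 lost regions were among them. This was close to fixed in advance, since the setting removes the weaker peaks of the longer lists. In day 10 replicate 2 the highest −log10 q of a gained region was 11.3, against a median of 17.3 over that list. Lost regions had median values of 6.06 and 4.30 in day 3 replicates 1 and 2, against 18.3 and 14.7 over those lists. The setting therefore does not test the 40 and the 619 regions. All 75 had a peak in at least 1 full day 3 list, 63 of them in all 4 lists and 12 in 3. At gene starts of list members the gained ones were Hapln1, for the cartilage link protein, Runx3, a RUNX family factor of chondrocytes, and Wnt4, for a WNT ligand. Hapln1 had fold enrichments of 4.71 in day 3 replicate 1, no peak in that region in replicate 2, and 7.23 and 7.19 on day 10. Runx3 had 6.65 in day 3 replicate 1, none in replicate 2, and 6.51 and 6.26 on day 10. Wnt4, in contrast, had a peak in all 4 full lists. Its fold enrichments were 9.03 and 6.95 in the day 3 lists, then 4.34 and 11.2 in the day 10 lists. The lost ones were Wnt6, Nppc, for C-type natriuretic peptide, Hif1a, for the hypoxia-inducible factor, Hoxd10 and Fmod, each with a peak in day 10 replicate 2 in the full list. Nppc had 15.2 and 7.93 on day 3 and 5.43 in day 10 replicate 2.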

How the data were processed

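H3K4me3 chromatin immunoprecipitation and sequencing of ATDC5 cells gave 1 deposited narrowPeak list per library, for 2 libraries a day. The submitters' processing notes name MACS2, HISAT2 2.2.0, Trim Galore and FastQC, and the labels give 75 bp reads. For settings, input libraries and duplicate reads, the answer was not given in the sources used here. The notes name GRCm39, but the coordinates were read as GRCm38: 41.6 to 76.3% of the summits lay within 1 kb of a RefSeq GRCm38.p6 gene start, and 3.83 to 4.71% after a shift of 20 kb. The deposited lists give the authors' fold enrichment as a ratio, the −log10 of the p-value and q-value, and a score that was not used in any result. They hold no counts, so depth is unknown. The lowest −log10 q of a list was 1.30 to 1.42, near a q of 0.05.

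Peaks on assembled chromosomes were merged where they overlapped by at least 1 bp, and a region was covered by a list with any peak in it. Positions are counted from 1. Gene starts came from the RefSeq promoter table for 79.9% of protein-coding genes, and otherwise both span ends were used. Windows were 1000 bp to each side. No test was made per region or gene, because the lists hold no counts. For a single value, an exact permutation of 2 against 2 libraries gives no p below 0.333. The number of peaks was compared with an exact permutation test. Intervals are exact Clopper-Pearson at 95%. Python 3.11.15, pandas 2.3.3, numpy 2.4.6 and scipy 1.17.1 were used, and the merging was tested on simulated data.

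The members and gene lists were chosen with earlier results of these data known. Named genes were the 12 strongest gained and lost regions at starts by the smaller fold enrichment, the 6 strongest away from genes, gained or lost list members at a start, 12 genes named whatever they showed, those with the most regions, and the weakest of each set. Exceptions are marked in the text. Alternatives were equal numbers of top peaks, a −log10 q of at least 5, merging across 1000 bp, mutual overlap, no peak of the other day within 1000 bp, other windows, and leaving out each library. Regions have no sequence here because no genome was used. Day 0 RUNX2 overlaps, and the results of some items, are not reported here.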

Additional observations from a re-analysis of the deposited data

How the results depend on the processing

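With equal numbers of top peaks the counts were 75 gained and 238 lost regions and 45 gained and 61 lost genes. Almost none of these regions were in the main sets. With a −log10 q of at least 5 the lost regions numbered 328, and the gained and lost genes 11 and 54. Leaving out single libraries gave 47 to 6894 gained regions, 20 to 304 gained genes, 624 to 9013 lost regions and 116 to 878 lost genes. The log2 ratio of peak numbers ran from −0.86 to 0.067 and changed sign to 0.067 without day 10 replicate 1. The cause was not tested. The other 28 values of these 5 results under an alternative kept their direction or stayed within 1.5 times of the main count.

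Merging across 1000 bp, mutual overlap and a clear margin of 1000 bp gave 35, 28 and 32 gained and 582, 547 and 454 lost regions. Of the 40 gained regions, 8 were called under these 3 settings and the −log10 q limit together, and of the 619 lost regions 117 were. Among shares of positions, day 0 and RUNX2 coverage, and the largest crosswise count, 23 values moved beyond their interval or 1.5 times and 46 did not.

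With the replicate number as a block, the mean log2 ratio of same-numbered pairs was −0.40 (−0.91 for replicate 1 and 0.12 for replicate 2), with p = 1 in an exact sign-flip test whose smallest p is 0.5. Whether same-numbered libraries belong together is not labelled. Over 40738 regions, the coverage difference between replicates on day 3 and on day 10 correlated at −0.0020. This value cannot settle the pairing, because the lists differ in length and 50.7% of the regions had a peak in 1 list only.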
